A study of Mus musculus with 15 samples.

Results

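Group 2 innate lymphoid cells (ILC2s) of the gut lamina propria (LP) were compared here between Tgfbr2-/- and WT libraries, gene family by gene family. The members are all libraries whose labels give the cell type ILC2, 7 of the 15 libraries of the study, and the other 8 hold ILC2 precursors (ILC2p) of the bone marrow. Every ILC2 library came from C57BL/6 mice that carried floxed alleles of *Tgfbr2* together with ER-Cre, a Cre recombinase that tamoxifen switches on. The 3 Tgfbr2-/- libraries (replicates 1 and 2 of experiment 1 and the only one of experiment 2) came from mice given tamoxifen for 5 days. The 4 WT libraries (replicates 1 and 2 of each experiment) came from mice of the same genotype given sunflower oil, so tamoxifen itself and the deletion cannot be told apart. For making such mice, the study's methods give an age of 8 to 12 weeks, 1 mg of tamoxifen per day and 1 day between the last dose and the harvest. The cells were sorted as CD45+Lin-CD127+Sca-1+CD25+KLRG1+. The promoter that drives ER-Cre, the floxed exon and the number of mice behind a library are not given in the sources used here. The p-values below therefore measure the spread between these libraries, which may be technical.

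TGF-β is a secreted cytokine that brings together the receptor chains TβR2 and TβR1. The assembled receptor phosphorylates SMAD2 and SMAD3, which enter the nucleus with SMAD4, and it also signals through MAP kinase pathways. In lymphocytes TGF-β is known to restrain cytotoxic programmes and to support genes of tissue residency. ILC2s depend on GATA3, respond to the alarmins IL-33, IL-25 and TSLP, and secrete IL-5, IL-13 and other type 2 mediators.

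The depth of the libraries differed. Counts on genes came to 22350339 and 20983448 in the WT libraries and to 29340187 and 32114265 in the Tgfbr2-/- libraries of experiment 1. In experiment 2 they came to 15823862 and 12997489 in WT and to 12167066 in the Tgfbr2-/- library. Both WT libraries of experiment 1 stood apart in the share of genes near 0. Among genes whose median in the other libraries reached 10 CPM (read counts scaled to the size of the library), 554 (6.76%) were under 1 CPM in WT replicate 1 and 210 (2.58%) in WT replicate 2 of that experiment. The corresponding shares were 0.0987% and 1.49% in the Tgfbr2-/- libraries of experiment 1. In experiment 2 they were 0.111% and 1.09% in WT and 0.0123% in the Tgfbr2-/- library. By the median Spearman correlation with the other libraries the order differed, with the lowest values in WT replicate 1 of experiment 1 (0.847), WT replicate 2 of experiment 2 (0.863), WT replicate 2 of experiment 1 (0.877) and Tgfbr2-/- replicate 2 of experiment 1 (0.879), and 0.90 to 0.913 in the other 3. The number of genes with a count was also higher in the Tgfbr2-/- libraries within each experiment, at 13543 and 12950 against 12345 and 12571 in experiment 1 and at 14971 against 13592 and 13255 in experiment 2. Results that rest on low levels are therefore given below also for genes with a mean of at least 20 CPM.

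The targeted gene did not separate the genotypes in both experiments. *Tgfbr2* is a protein-coding gene on the minus strand of chromosome 9, at 115993415 to 116084383 of NCBIM37 (mm9). It was at 191 and 278 CPM (WT) against 215 and 191 CPM (Tgfbr2-/-) in experiment 1, where the groups overlapped. In experiment 2 it was at 156 and 215 CPM against 102 CPM, below both. The log2 fold change over the 7 libraries was -0.46 ± 0.24 (the error of every log2 fold change is its standard error, SE), with a Benjamini-Hochberg adjusted p of 0.898 (edgeR, quasi-likelihood test). The counts cover the whole transcript, so a transcript that lacks only the floxed part would still be counted. *Tgfbr1*, the gene of the partner chain TβR1, was at 15.6 and 3.01 CPM (WT) against 12.3 and 12.6 CPM (Tgfbr2-/-) in experiment 1, and at 17.6 and 13.6 against 23.3 CPM in experiment 2. Because *Tgfbr2* overlapped, every direction given rests on the labels, as libraries labelled Tgfbr2-/- set against those labelled WT.

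The libraries carried the markers of their label. Summed over 16 ILC2 marker genes, the level was 10131 and 10382 CPM (WT) against 7948 and 9586 CPM (Tgfbr2-/-) in experiment 1, and 11189 and 11559 against 11138 CPM in experiment 2. *Gata3*, the master transcription factor of ILC2s and the marker with the highest counts, was at 3316 and 3803 CPM (WT) against 2374 and 3079.8 CPM (Tgfbr2-/-) in experiment 1, and at 4539 and 4889 against 4455 CPM in experiment 2. In bulk RNA, fewer cells of a type and less RNA per cell cannot be told apart.

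Over 11981 genes, no gene was called at an adjusted p under 0.1 with a fold change over 1.5 (edgeR's quasi-likelihood test, experiment as covariate). The background of calls was thus 0.0% in each direction, and the smallest adjusted p was 0.877. At an unadjusted p under 0.05 stood 557 genes (4.65%), 307 higher and 250 lower. DESeq2, with the same design and thresholds, called 269 genes higher (2.34%) and 69 lower (0.599%) of the 11516 to which it gave an adjusted p. Of these calls 131 of the higher and 60 of the lower lay on that side in both experiments. A call-free measure was therefore used for the families. A gene counts as higher in both experiments when every Tgfbr2-/- library lay above every WT library of its own experiment, and as lower in both when every one lay below.

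By that measure 813 genes (6.79%) were higher and 697 (5.82%) lower in both experiments. The filter on low counts asked for 0.477 CPM in at least 3 libraries, so a gene could meet it only with the help of the group where it is high. For such a gene the filter itself favours a difference. Of the 813 higher genes 259 would not have passed in the WT libraries alone, and of the 697 lower genes 36 would not have in the Tgfbr2-/- libraries alone. With at least 10 counts required in every library the shares were 6.47% and 6.59%. The share depended on the level of the gene. Of 6692 genes with a mean of at least 20 CPM, 315 (4.71%) were higher and 527 (7.88%) lower, whereas of 5289 genes under 20 CPM 498 (9.42%) were higher and 170 (3.21%) lower. Across genes the mean differences of the 2 experiments correlated with r = 0.164, and 6460 genes (53.9%) differed in the same direction in both; genes are not independent replicates. No gene's genotype effect was called different between the experiments (0 calls, 328 genes at an unadjusted p under 0.05). Genotype can be exchanged within experiments in 18 ways, so the smallest exact two-sided permutation p for a single gene is 0.0556 and no gene could pass 0.05 by that test. Ties aside, labels without meaning would put a gene on a given side with that same probability, 0.0556. The shares of 6.79% and 5.82% lie near it, so a place on either side is not by itself a genotype effect.

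Of 53 gene lists, 52 had at least 8 members tested. The 6 with the largest share higher in both experiments and the 6 with the largest share lower are described below. Leading on the higher side were killer cell lectin-like receptors, cytotoxic granule and death ligand genes, the SOCS family, interferon-stimulated genes, the BCL2 family, and checkpoint and costimulatory receptors. On the lower side were actin cytoskeleton genes, regulators of G-protein signalling, chemokine receptors, clock genes, residency and egress genes, and type 2 cytokines and effectors. These lists and the genes named from them were picked for lying on that side, so the side is not by itself a finding about them. Among the other 40 lists the share of members higher in both ran from 0.0% to 23.1% and the share lower in both from 0.0% to 19.0%. Every list count below stands against 6.79% higher and 5.82% lower over all genes. These shares were 4.71% and 7.88% at a mean of at least 20 CPM and 9.42% and 3.21% under it. With at least 10 counts in every library they were 6.47% and 6.59%. DESeq2 called 2.34% of genes higher and 0.599% lower.

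**Figure D1:**
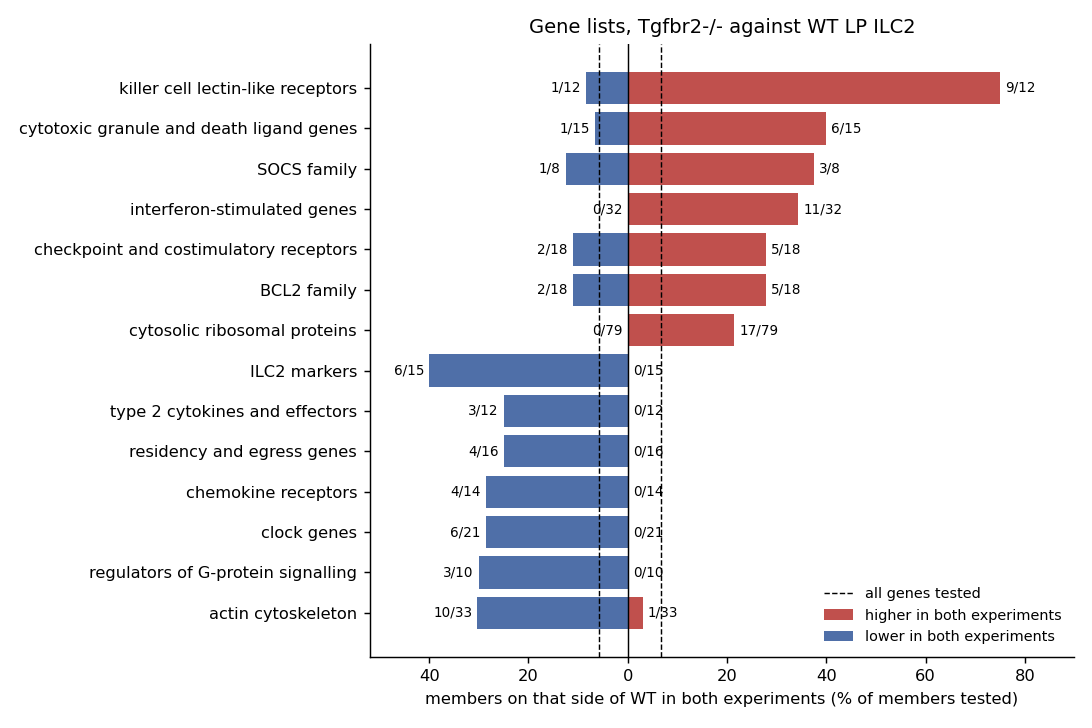
Share of the tested members of each gene list that lay above (red, right) or below (blue, left) every WT library of the same experiment in both experiments, in percent, with counts beside the bars and dashed lines at the shares of all 11981 genes (6.79% and 5.82%). Killer cell lectin-like receptors have the longest red bar (9 of 12), and interferon-stimulated genes and cytosolic ribosomal proteins have no member on the lower side.

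Within each experiment the medians of the leading lists could be compared with those of all genes, which were 0.06 log2 in both. The medians of 5 lists on the higher side were above 0.2 log2 in both experiments, while that of the BCL2 family was 1.09 in experiment 1 and 0.09 in experiment 2. On the lower side the medians of actin genes, regulators of G-protein signalling, clock genes and residency genes were negative in both experiments. The median of chemokine receptors was negative in experiment 1 alone (-0.48 and 0.08), and that of type 2 cytokines was 0.04 and -0.34.

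**Figure D2:**
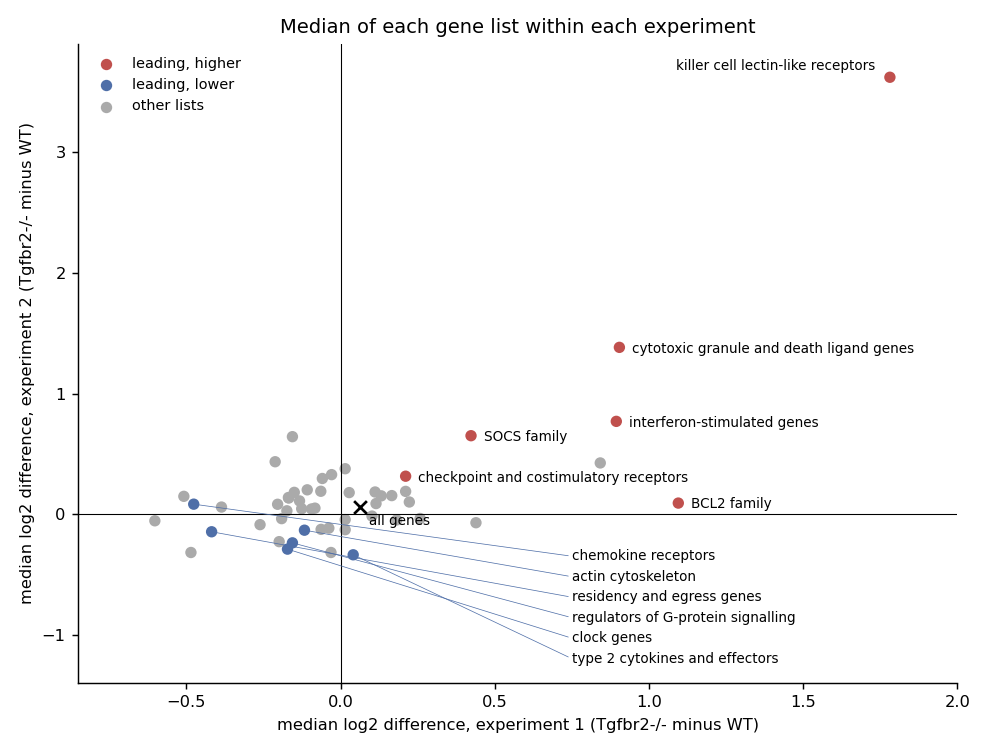
Median log2 difference between Tgfbr2-/- and WT libraries for each of the 52 gene lists, experiment 1 on the x axis and experiment 2 on the y axis; red and blue points are the leading lists, grey points the others, and the cross marks all genes (0.06 in both). Killer cell lectin-like receptors lie farthest up (1.78 and 3.62), and the blue points lie close to the origin. The value of 3.62 depends on WT libraries at or near 0 counts. Fitted in each experiment alone, the median log2 fold change of this list was 1.71 in experiment 1 and 1.83 in experiment 2.

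Killer cell lectin-like receptors are surface receptors of natural killer (NK) cells and other innate lymphocytes that bind MHC class I-like or lectin-like ligands, some activating and some inhibitory. Of 33 family members found in the files, 15 had no count in any library and 12 passed the filter on low counts. Among these 12, 9 (75%) were higher and 1 was lower in both experiments, with a median log2 fold change of 2.22 against -0.01 over all genes tested. DESeq2 called 3 of them higher and none lower. All 12 tested members lie on chromosome 6, and 11 of them, the 9 included, in 1 stretch from 128559245 to 129690502 of NCBIM37, the NK gene complex. The family was expressed at low levels, with a median of 6.19 CPM. Of all genes with a mean under 20 CPM, 9.42% were higher in both. Of the 3 members with a mean of at least 20 CPM, 2 were higher and 1 lower (4.71% and 7.88% of all such genes). With at least 10 counts in every library 4 of 5 were higher (6.47% of all genes).

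*Klrb1f*, a member of the NKR-P1 group, was at 0.726 and 0.562 CPM (WT) against 12.2 and 30.96 CPM (Tgfbr2-/-) in experiment 1. In experiment 2 it was at 5.47 and 0 CPM against 10.4 CPM, and the log2 fold change was 4.0 ± 1.76. The NKR-P1 genes are close copies of each other, and reads with several hits were kept, so counts may be shared between them. *Klri2*, which pairs with KLRE1, was at 3.73 and 0.511 against 5.61 and 21.7 CPM in experiment 1 and at 0.941 and 0.0726 against 8.69 CPM in experiment 2 (log2 fold change 3.26 ± 1.23). *Klrc1*, which encodes the inhibitory receptor NKG2A, was at 4.25 and 3.62 against 6.35 and 19.7 CPM and at 1.82 and 0 against 9.61 CPM (log2 fold change 2.42 ± 1.32). In each case WT replicate 2 of experiment 2 had the lowest level or none. *Klre1* had 2 and 3 counts in the WT and 40 and 73 counts in the Tgfbr2-/- libraries of experiment 1, and 0 and 0 against 7 in experiment 2. No WT library reached the minimum of the filter for *Klre1*, and for *Klrd1* the WT libraries alone would not have passed it.

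The other 5 members on that side were *Klrb1a*, *Klrb1b*, *Klrb1c*, *Klrd1* and *Klrk1*. *Klrb1b*, picked out after its values were seen for the highest counts of the 9, was at 94.1 and 123 CPM (WT) against 168 and 268 CPM (Tgfbr2-/-) in experiment 1, and at 88.5 and 118 against 209 CPM in experiment 2 (log2 fold change 1.01 ± 0.23). The groups did not overlap across the 7 libraries. *Klrg1*, the inhibitory receptor that served in the sorting gate, was the only member lower in both, at 927 and 888 against 716 and 705 CPM and 1021 and 872 against 818 CPM.

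Cytotoxic granule and death ligand genes encode the granzymes, perforin, granule proteins and ligands by which killer lymphocytes kill target cells. Of 15 members tested, 6 (40%) were higher and 1 lower in both experiments, with a median log2 fold change of 0.78. DESeq2 called 4 higher. The median was 1.31 without WT replicate 1 of experiment 1, where 9 members and 12.6% of all genes were higher, and 1.28 without Tgfbr2-/- replicate 1, where 8 members and 10.7% of all genes were. The 6 were *Fasl*, *Gzmb*, *Gzmc*, *Gzme*, *Gzmg* and *Serpinb6b*, and the member lower in both was *Ctsc*, which encodes the protease that activates granzymes. The 4 granzymes lie together on chromosome 14 of NCBIM37, between 56736456 and 56881097, and are close copies that may share reads. Of the 11 members with a mean of at least 20 CPM, 2 were higher and 1 lower (4.71% and 7.88% of all such genes), with a median of 0.49. With at least 10 counts required in every library 1 of 10 was higher (6.47% of all genes).

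*Gzmc*, a granzyme of activated killer cells, was at 18.05 and 9.85 CPM (WT) against 134 and 229.8 CPM (Tgfbr2-/-) in experiment 1, and at 0.0588 and 3.34 CPM against 43.97 CPM in experiment 2. The groups did not overlap across the 7 libraries, and the log2 fold change was 4.10 ± 0.82. *Gzme* had 2 and 2 counts in WT and 122 and 123 counts in Tgfbr2-/- libraries of experiment 1, and 0 and 0 against 17 in experiment 2. *Gzmg* had 4 and 2 against 48 and 69 counts and 0 and 1 against 7 counts. For *Gzme* and *Gzmg* no WT library reached the minimum of the filter, and these and *Fasl*, 3 of the 6, would not have passed it in the WT libraries alone. *Fasl*, the death ligand of the receptor FAS, was at 0.156 and 0.562 against 5.74 and 18.9 CPM in experiment 1 and at 3.29 and 0 against 6.30 CPM in experiment 2 (log2 fold change 4.0 ± 1.88). 2 other members typical of NK cells, chosen after their values were seen, overlapped in experiment 1 and were higher in experiment 2. *Gzma* was at 316 and 122 CPM (WT) against 124 and 230.5 CPM (Tgfbr2-/-) in experiment 1, and at 164 and 189.7 against 816 CPM in experiment 2. *Prf1*, the perforin gene, was at 74.2 and 59.1 against 72.1 and 56.3 CPM and at 34.3 and 86.9 against 115 CPM.

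**Figure D3:**
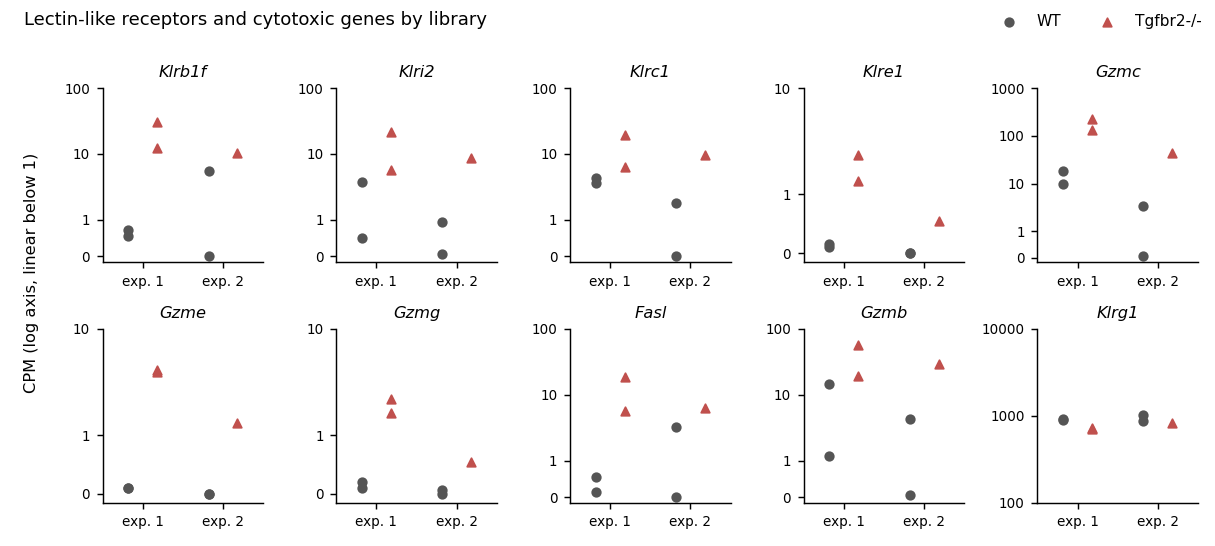
CPM of killer cell lectin-like receptor and cytotoxic genes in each of the 7 libraries, by experiment (x axis), on a y axis that is logarithmic above and linear below 1 CPM; circles are WT and triangles Tgfbr2-/- libraries. In every panel but that of *Klrg1* the triangles lie above the circles of their experiment, and *Gzmc* is an example (0.0588 and 3.34 CPM in WT against 44.0 CPM in experiment 2).

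Markers of ILC1s and NK cells moved partly with these families. Of the 11 tested, 5 were higher and 0 lower in both experiments (*Klrb1c*, *Klrd1*, *Klre1*, *Ncr1* and *Tbx21*), of which 3 also belong to the lectin-like receptors. Their summed level was 1337 and 819 CPM (WT) against 983 and 1292 CPM (Tgfbr2-/-) in experiment 1, where the groups overlapped, and 924 and 867 against 1753 CPM in experiment 2. The marker with the highest counts, *Nkg7*, was at 751 and 522 against 575 and 605 CPM in experiment 1 and 678 and 547 against 679.8 CPM in experiment 2. *Eomes*, the transcription factor of mature NK cells, and *Klra8* had no count in any library. The part of these cells in the values of the receptors and granzymes was not tested.

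Interferon-stimulated genes are antiviral and signalling genes that type I interferon switches on. Of 32 tested, 11 (34.4%) were higher and 0 lower in both experiments, 30 had a positive log2 fold change, and the median was 0.70. DESeq2 called 4 higher and none lower. Of the 21 members with a mean of at least 20 CPM, 7 were higher and 0 lower in both (4.71% and 7.88% of all such genes), with a median of 0.38. Of the 11, *Ifi44*, *Mx2* and *Rsad2* would not have passed the filter in the WT libraries alone. Without Tgfbr2-/- replicate 2 of experiment 1, 21 of 32 members were higher in both, where the share over all genes was 10.3%.

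The largest log2 fold changes were those of *Ifi44*, *Rsad2*, *Ifit1* and *Mx2*. *Rsad2*, which encodes the antiviral enzyme viperin, was at 0.311 and 0.357 CPM (WT) against 18.6 and 8.96 CPM (Tgfbr2-/-) in experiment 1, and at 6.35 and 0 against 18.4 CPM in experiment 2 (log2 fold change 4.34 ± 1.75). *Ifit1*, whose product binds viral RNA that lacks cap methylation, was at 0.363 and 1.28 against 22.2 and 25.4 CPM in experiment 1 and 28.9 and 16.4 against 61.7 CPM in experiment 2 (log2 fold change 3.70 ± 0.98). The WT libraries of experiment 1 were near 0 for both genes, while for *Ifit1* WT replicate 1 of experiment 2 lay above both Tgfbr2-/- libraries of experiment 1 and WT replicate 2 below them. *Mx2*, a dynamin-like antiviral GTPase, was at 0.104 and 0.204 against 2.08 and 5.57 CPM and 2.59 and 0 against 3.31 CPM. *Ifi44* had 0 and 0 counts in WT and 72 and 1 in Tgfbr2-/- libraries of experiment 1, so its place on the higher side rests there on a single count in replicate 2, and it was at 3.64 and 3.20 against 10.5 CPM in experiment 2.

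Members with higher levels, picked out after their values were seen, differed by less. *Isg15*, a ubiquitin-like modifier, was at 74.1 and 87.9 CPM (WT) against 114 and 172 CPM (Tgfbr2-/-) in experiment 1, and at 45.1 and 41.5 against 89.2 CPM in experiment 2 (log2 fold change 0.91 ± 0.23). *Irf9*, a transcription factor of the interferon response, was at 37.7 and 38.2 against 69.4 and 79.3 CPM and 79.1 and 68.5 against 89.9 CPM (log2 fold change 0.70 ± 0.26). *Isg15* did not overlap between genotypes across the 7 libraries, whereas *Irf9* separated within each experiment only. *Isg20*, an RNA exonuclease, was at 41.1 and 53.1 against 78.3 and 54.04 CPM and 40.5 and 34.6 against 67.96 CPM.

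**Figure D4:**
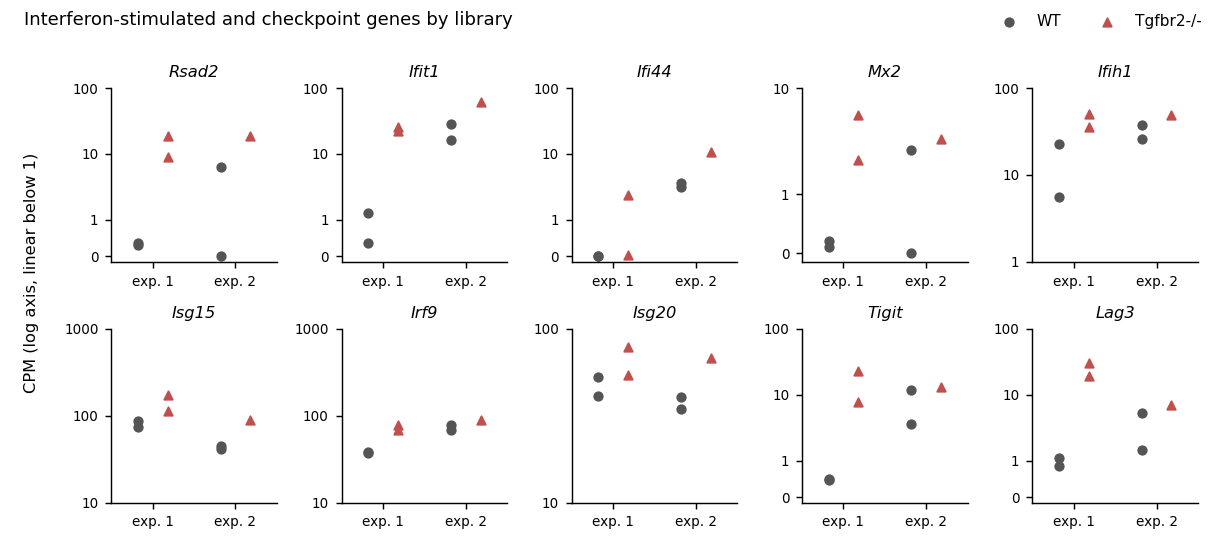
CPM of interferon-stimulated genes and of the checkpoint genes *Tigit* and *Lag3* in each library, by experiment (x axis), on a y axis that is logarithmic above and linear below 1 CPM; circles are WT and triangles Tgfbr2-/- libraries. The circles of experiment 1 lie near 0 for *Rsad2*, *Ifit1*, *Ifi44* and *Mx2*, and *Isg15* and *Irf9* separate by smaller steps (74.1 and 87.9 CPM of *Isg15* in WT against 114 and 172 CPM in experiment 1).

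The promoters of these genes were searched for a known element. The interferon-stimulated response element was read on both strands as GAAA, any 2 bases and GAAA. Of the 34 members 23 had a promoter of 300 bases (250 before and 50 after the start) in RefSeq's GRCm38.p6 table. The element was in 11 of the 23 (47.8%) and in 1131 of all 32851 promoters (3.44%). A member counted if any of its promoters held the element, while the share over all is per promoter, so these shares have unlike units. The element was in 6 of 10 members higher in both experiments (60%) and in 5 of 13 others tested (38.5%). A match is a description of the letters. Shown are the 250 bases before the start of *Rsad2* (chr12:27141318-27141567, minus strand of NCBIM37) and of *Ifit1* (chr19:34715129-34715378, plus strand), from RefSeq's table and found once each in NCBIM37, because these genes had 2 of the largest differences. Capitals mark the element, which lies on the other strand, 120 to 111 bases before the start in *Rsad2* and 104 to 95 and 85 to 76 bases before it in *Ifit1*. GENCODE puts the start of *Ifit1* at 34715361, near the end of the stretch shown.
Rsad2: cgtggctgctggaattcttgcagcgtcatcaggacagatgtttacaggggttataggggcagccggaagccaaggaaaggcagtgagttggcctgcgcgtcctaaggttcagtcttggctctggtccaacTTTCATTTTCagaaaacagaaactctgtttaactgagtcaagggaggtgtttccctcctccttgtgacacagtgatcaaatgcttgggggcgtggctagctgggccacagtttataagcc
Ifit1: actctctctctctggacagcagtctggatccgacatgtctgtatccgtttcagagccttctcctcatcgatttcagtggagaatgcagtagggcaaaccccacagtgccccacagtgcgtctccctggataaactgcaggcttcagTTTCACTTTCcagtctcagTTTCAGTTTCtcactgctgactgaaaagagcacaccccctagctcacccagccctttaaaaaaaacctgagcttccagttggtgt

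The SOCS family encodes feedback inhibitors of cytokine signalling. Of 8 members tested 3 (37.5%) were higher and 1 lower in both experiments, the median was 0.19, and without WT replicate 2 of experiment 1 the number higher was 5 (12.7% of all genes) and the median 1.10. At a mean of at least 20 CPM the median was -0.02. DESeq2 called 1 higher and 1 lower. The higher members were *Socs4*, *Socs6* and *Socs7*, members with long N-terminal extensions, and none of the 5 members with a mean of at least 20 CPM was higher. *Socs7* was at 0.830 and 0.766 CPM (WT) against 20.8 and 18.8 CPM (Tgfbr2-/-) in experiment 1, and at 6.70 and 18.4 against 20.99 CPM in experiment 2, so that the difference was large in the first and small in the second. *Socs4* was at 0.830 and 12.6 against 14.9 and 28.6 CPM and 11.5 and 2.69 against 18.99 CPM, and *Socs6* at 0.415 and 9.55 against 14.5 and 14.3 CPM and 12.9 and 2.25 against 18.4 CPM. WT replicate 1 of experiment 1 was under 1 CPM for all of them. *Socs3*, which limits signalling by STAT3 and was named after its values were seen, lay on the other side, at 227 and 210.2 against 114 and 94.4 CPM and 68.1 and 119 against 44.9 CPM (log2 fold change -1.06 ± 0.24).

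The BCL2 family sets the threshold of mitochondrial cell death. Of 18 members tested 5 (27.8%) were higher and 2 lower in both experiments, with a median of 0.60, and with upper-quartile scaling or without either WT library of experiment 2 the number higher was 8. The shares over all genes were 8.78% with that scaling and 10.8% and 11.7% without WT replicates 1 and 2. Of the 11 members with a mean of at least 20 CPM, 4 were higher and 2 lower (4.71% and 7.88% of all such genes), with a median of 0.36. The median was 1.05 without the Tgfbr2-/- library of experiment 2, and DESeq2 called 1 higher and 1 lower. The 5 mixed both functions of the family. *Bbc3* (PUMA) and *Bcl2l11* (BIM) promote death, whereas *Bcl2*, *Bcl2a1a* and *Bcl2a1d* protect from it. *Bbc3* was at 7.16 and 19.6 CPM (WT) against 39.4 and 56.6 CPM (Tgfbr2-/-) in experiment 1 and at 5.35 and 4.72 against 9.46 CPM in experiment 2 (log2 fold change 1.49 ± 0.58). *Bcl2l11* was at 52.02 and 86.4 against 106 and 107 CPM and 62.96 and 59.8 against 82.9 CPM (log2 fold change 0.55 ± 0.25). Both separated within each experiment. *Bcl2a1d* was at 14.2 and 16.4 against 21.1 and 54.1 CPM and 17.05 and 12.5 against 32.8 CPM (log2 fold change 1.24 ± 0.49), and *Bcl2a1a*, a near copy that can share its reads, at 7.11 and 7.30 against 9.84 and 30.3 CPM and 9.93 and 6.97 against 16.8 CPM. Lower in both were *Bcl2l12* and *Bcl2l1*, which encodes the protective protein BCL-XL. *Bcl2l1*, given after its values were seen, was at 338 and 389 against 251 and 226 CPM and 311 and 275 against 173 CPM (log2 fold change -0.67 ± 0.16).

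Checkpoint and costimulatory receptors tune lymphocyte activation. Of 18 members tested 5 (27.8%) were higher and 2 lower in both experiments, the median was 0.25, and DESeq2 called 2 higher. The median was 0.10 without Tgfbr2-/- replicate 2 and 0.12 without WT replicate 2 of experiment 1. Restricted to the 12 members with a mean of at least 20 CPM, 1 was higher and 2 were lower (4.71% and 7.88% of all such genes). Their median was -0.13, so the direction of this list depended on its low members. With at least 10 counts in every library 3 of 14 were higher (6.47% of all genes). Without WT replicate 1 of experiment 2, 5 members were higher and 4 lower (10.8% and 8.88% of all genes). With upper-quartile scaling or the deposited RPKM, 6 were higher and 1 lower. The shares over all genes were 8.78% and 4.06% with that scaling and 8.2% and 4.59% with the RPKM. *Lag3*, an inhibitory receptor for MHC class II, was at 1.09 and 0.868 CPM (WT) against 19.6 and 29.97 CPM (Tgfbr2-/-) in experiment 1, and at 1.47 and 5.23 against 6.996 CPM in experiment 2 (log2 fold change 3.50 ± 1.23). *Tigit*, an inhibitory receptor for CD155, was at 0.467 and 0.511 against 7.73 and 22.8 CPM and 11.9 and 3.56 against 12.99 CPM (log2 fold change 3.65 ± 1.43). For both genes the gap was wide in experiment 1 and narrow in experiment 2. *Ctla4* was at 11.4 and 16.5 against 20.02 and 39.8 CPM and 3.94 and 10.2 against 17.8 CPM (log2 fold change 1.19 ± 0.60), and *Tnfrsf4* (OX40) at 0.467 and 0.102 against 5.04 and 8.96 CPM and 0.882 and 3.20 against 5.84 CPM, which would not have passed the filter in the WT libraries alone. The fifth was *Cd200r1*. The 2 lower members were *Cd28*, the costimulatory receptor of T cells, and *Cd160*. The ligand of OX40, *Tnfsf4*, was also among the higher genes. It belongs to the TNF superfamily ligands, of which 3 of 13 were higher in both (23.1%; *Fasl*, *Tnfsf14* and *Tnfsf4*) and none lower. Given after its values were seen, *Tnfsf4* was at 0.311 and 0.306 CPM (WT) against 3.56 and 16.8 CPM (Tgfbr2-/-) in experiment 1 and at 0.0588 and 0 against 5.996 CPM in experiment 2. No WT library reached the minimum of the filter for it.

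Cytosolic ribosomal proteins, the protein part of the machine that translates mRNA, had members on the higher side and none on the lower without being a leading list. Of 79 tested 17 (21.5%) were higher and 0 lower in both experiments, 72 had a positive log2 fold change, and the median was 0.20, with 0.21 in experiment 1 and 0.19 in experiment 2. No member reached an unadjusted p under 0.05. The count was 29 with upper-quartile scaling (8.78% of all genes higher) and 52 without WT replicate 2 of experiment 2 (11.7% of all genes). Of 77 mitochondrial ribosomal proteins 3 were higher and 1 lower in both, with a median of -0.08.

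Type 2 cytokines and effectors are the secreted products by which ILC2s act on eosinophils, epithelium and other cells. Of 12 members tested 0 were higher and 3 (25.0%) lower in both experiments, and DESeq2 called 2 lower. The median was -0.04 and depended on the libraries. It was -0.18 without Tgfbr2-/- replicate 1 of experiment 1, where 5 members and 8.9% of all genes were lower in both, -0.16 without replicate 2, and 0.07 without the Tgfbr2-/- library of experiment 2. *Il5*, the growth factor of eosinophils, was at 104 and 131 CPM (WT) against 43.2 and 65.7 CPM (Tgfbr2-/-) in experiment 1, and at 142 and 228 against 69.2 CPM in experiment 2. The mean over the WT libraries was 151 ± 53.7 CPM (SD, n = 4) and that over the Tgfbr2-/- libraries 59.4 ± 14.1 CPM (SD, n = 3), with a log2 fold change of -1.23 ± 0.27, and the genotypes did not overlap across the 7 libraries. *Il13*, which drives mucus and smooth muscle responses, was at 31.5 and 44.7 against 22.8 and 23.6 CPM in experiment 1 and 17.9 and 24.7 against 11.3 CPM in experiment 2 (log2 fold change -0.80 ± 0.43). *Csf2*, which encodes GM-CSF, was at 989 and 726 against 318 and 561 CPM and 791 and 810.5 against 615 CPM (log2 fold change -0.72 ± 0.24). *Il4* had a log2 fold change of 0.01 ± 0.16 and *Areg*, which encodes the tissue-repair factor amphiregulin, one of -0.10 ± 0.21, and both genes overlapped between genotypes.

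Receptors through which ILC2s are activated include those for alarmins, neuropeptides and lipids. Of 21 tested 1 (*Cd200r1*) was higher and 4 (19.0%) were lower in both experiments, and DESeq2 called 3 lower. The 4 were *Il1rl1*, the IL-33 receptor ST2, *Il9r*, *Nmur1*, the receptor for neuromedin U, and *Cysltr1*, a receptor for cysteinyl leukotrienes. Beyond the rule for named genes, *Nmur1* is given as an example, at 883 and 901 CPM (WT) against 737 and 418 CPM (Tgfbr2-/-) in experiment 1 and at 652 and 939 against 453 CPM in experiment 2 (log2 fold change -0.70 ± 0.23). It separated within each experiment. The median of the list was 0.06 over both experiments, -0.11 within experiment 1 and 0.20 within experiment 2, so the 4 were not accompanied by the list as a whole. Without Tgfbr2-/- replicate 1 of experiment 1, 4 members were higher and 4 lower in both, where 10.7% and 8.9% of all genes were. Of 15 ILC2 markers tested 6 were lower in both experiments (40%) and none was higher. The 6 were *Il1rl1*, *Il5*, *Il13*, *Gata3*, *Klrg1* and *Ptprc*, of which all but *Ptprc* are named above. Products of *Klrg1* and *Ptprc* served in the sorting gate.

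Chemokine receptors guide cells into tissues. Of 14 members tested 0 were higher and 4 (28.6%) lower in both experiments, with a median of -0.32, and DESeq2 called none. The median turned to 0.11 without WT replicate 2 of experiment 1 and was -0.07 without Tgfbr2-/- replicate 1 of that experiment and -0.50 without the Tgfbr2-/- library of experiment 2. *Ccr4* was at 169.7 and 117 CPM (WT) against 64.5 and 96.6 CPM (Tgfbr2-/-) in experiment 1, and at 114 and 206 against 76.3 CPM in experiment 2 (log2 fold change -0.93 ± 0.29). *Ccr8* was at 1327 and 1122 against 712 and 975 CPM and 1462 and 957 against 955 CPM (log2 fold change -0.46 ± 0.20). Both receptors are typical of type 2 lymphocytes, and *Ccr8* separated in experiment 2 by the smallest of margins. *Cxcr6*, the receptor for CXCL16, was at 595 and 475 against 354 and 419 CPM and 657 and 752 against 497 CPM (log2 fold change -0.48 ± 0.16). *Xcr1*, better known from dendritic cells, was at 12.4 and 10.5 against 3.16 and 2.40 CPM and 9.99 and 9.81 against 7.15 CPM. *Ccr9*, the gut-homing receptor, overlapped between genotypes, with a log2 fold change of 0.25 ± 0.32.

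Residency and egress genes decide whether a lymphocyte stays in a tissue. Of 16 members tested 0 were higher and 4 (25.0%) lower in both experiments, the median was -0.41, and DESeq2 called 2 lower. Apart from *Cxcr6*, shared with the chemokine receptors, these were *Cd69*, *Rgs1* and *Itgb7*. *Cd69*, whose product holds cells in tissue by removing the egress receptor S1PR1 from the surface, was at 992 and 885 CPM (WT) against 585 and 616 CPM (Tgfbr2-/-) in experiment 1, and at 1058 and 728 against 620.1 CPM in experiment 2 (log2 fold change -0.60 ± 0.17). *Itgb7*, the chain of the gut-homing integrins, differed little, at 1911 and 2089.6 against 1848 and 1704 CPM and 1645 and 1443 against 1402 CPM (log2 fold change -0.16 ± 0.13). None of the tested egress genes was higher in both experiments. With scaling to library size or the deposited RPKM, 1 member of the list was. *S1pr1* had a log2 fold change of -1.48 ± 1.0 and *Klf2*, the factor that induces it, one of 0.08 ± 0.16.

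Regulators of G-protein signalling shorten signals from chemokine and other receptors. Of 10 tested 0 were higher and 3 (30.0%) lower in both experiments, with a median of -0.39. DESeq2 called 1 lower. The median was -0.60 without Tgfbr2-/- replicate 1 of experiment 1 and -0.25 without WT replicate 2 of the same experiment. *Rgs1*, a regulator common in tissue-resident lymphocytes, was at 1621 and 1385 CPM (WT) against 871 and 1082 CPM (Tgfbr2-/-) in experiment 1, and at 1200.2 and 1558 against 939.7 CPM in experiment 2 (log2 fold change -0.59 ± 0.16). *Rgs10* was at 67.99 and 78.9 against 54.99 and 12.01 CPM and 67.9 and 61.2 against 28.1 CPM (log2 fold change -1.16 ± 0.49), and *Rgs14* at 121 and 111 against 89.8 and 56.3 CPM and 70.1 and 109 against 70.1 CPM (log2 fold change -0.54 ± 0.27). For *Rgs10* Tgfbr2-/- replicate 2 of experiment 1 lay far below the other libraries, and for *Rgs14* the gap in experiment 2 was within rounding.

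Clock genes keep circadian time through a feedback loop in which CLOCK and BMAL1 activate their own repressors and the output factors DBP, TEF and HLF. Of 21 tested 0 were higher and 6 (28.6%) lower in both experiments, 18 had a negative log2 fold change, the median was -0.29 (-0.14 without WT replicate 2 of experiment 1), and DESeq2 called 4 lower. The 6 were *Bhlhe41*, *Ciart*, *Dbp*, *Nr1d1*, *Per3* and *Tef*, which are targets or repressors of the loop. *Bhlhe41* would not have passed the filter in the Tgfbr2-/- libraries alone. The hours at which the mice were killed are not given in the sources used here, and their part in these values was not tested. *Dbp* was at 96.3 and 113 CPM (WT) against 65.8 and 23.5 CPM (Tgfbr2-/-) in experiment 1, and at 71.7 and 38.6 against 14.7 CPM in experiment 2 (log2 fold change -1.49 ± 0.44). *Per3* was at 46.6 and 83.8 against 32.3 and 20.7 CPM and 32.2 and 64.5 against 19.2 CPM (log2 fold change -1.31 ± 0.41). Both separated within each experiment. *Tef* was at 76.9 and 112 against 47.8 and 58.3 CPM and 64.6 and 79.8 against 28.5 CPM (log2 fold change -1.03 ± 0.28). *Ciart*, a repressor of CLOCK and BMAL1, was at 37.3 and 59.7 against 17.8 and 16.1 CPM in experiment 1 and at 10.1 and 10.2 against 5.69 CPM in experiment 2 (log2 fold change -1.24 ± 0.48). For *Ciart* every library of experiment 2 lay below every library of experiment 1, whatever the genotype. *Nr1d1*, which encodes the repressor REV-ERBα and was named after its values were seen, showed the same order of experiments, at 318 and 308 against 190.2 and 147 CPM and 107 and 98.1 against 62.96 CPM (log2 fold change -0.82 ± 0.18).

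CLOCK and BMAL1 bind the E-box CACGTG, a palindrome. Of the 21 clock genes 17 had a promoter of 300 bases in RefSeq's GRCm38.p6 table, and the E-box was in 5 of them (29.4%), against 2349 of all 32851 promoters (7.15%). Here too a clock gene counted if any of its promoters held the E-box, while the share over all is per promoter. The E-box was in 3 of the 6 members lower in both experiments (50%) and in 2 of 11 others tested (18.2%). These counts are small, the 6 were picked by their side in these data, and a match describes only the letters. Shown, as the named clock genes that hold the E-box, are the 250 bases before the RefSeq start of *Ciart* (chr3:95686152-95686401, minus strand of NCBIM37) and of *Tef* (chr15:81632853-81633102, plus strand), each found once in NCBIM37. GENCODE puts the start of *Tef* at 81632851, so by that annotation the stretch shown lies within the gene. Capitals mark the E-boxes, which lie 116 to 111, 58 to 53 and 44 to 39 bases before the start in *Ciart* and 127 to 122 bases before it in *Tef*.
Ciart: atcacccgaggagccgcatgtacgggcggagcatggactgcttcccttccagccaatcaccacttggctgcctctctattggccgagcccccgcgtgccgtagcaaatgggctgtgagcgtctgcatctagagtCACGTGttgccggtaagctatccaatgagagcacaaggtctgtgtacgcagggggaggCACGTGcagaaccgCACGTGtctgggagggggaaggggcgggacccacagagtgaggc
Tef: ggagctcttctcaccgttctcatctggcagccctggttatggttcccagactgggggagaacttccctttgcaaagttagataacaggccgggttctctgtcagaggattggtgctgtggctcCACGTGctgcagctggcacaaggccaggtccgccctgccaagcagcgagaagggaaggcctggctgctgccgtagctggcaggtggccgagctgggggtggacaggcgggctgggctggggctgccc

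**Figure D5:**
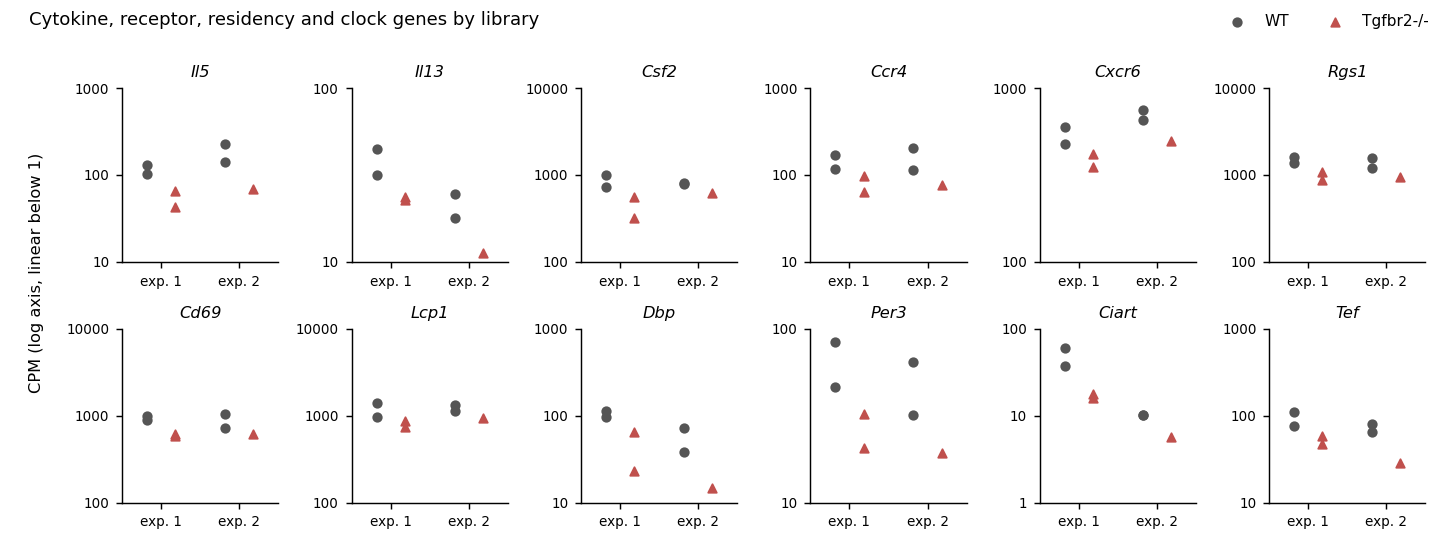
CPM of cytokine, receptor, residency, actin and clock genes that were lower in both experiments, in each library, by experiment (x axis), on a logarithmic y axis; circles are WT and triangles Tgfbr2-/- libraries. The triangles lie below the circles of their experiment in every panel, and for *Ciart* both experiments differ in level (5.69 to 10.2 CPM in experiment 2 against 16.1 to 59.7 CPM in experiment 1).

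Actin cytoskeleton genes encode actin and the proteins that nucleate, cut, bundle and anchor its filaments. Of 33 tested 1 was higher and 10 (30.3%) lower in both experiments, the median was -0.19, and DESeq2 called none. This count depended on the scaling. With scaling to library size 4 were lower in both (4.63% of all genes), with the upper quartile or the deposited RPKM 5 (4.06% and 4.59%), and with at least 10 counts in every library 6 (6.59%). *Lcp1*, which encodes the actin-bundling protein L-plastin of leukocytes, was at 1421 and 977 CPM (WT) against 751 and 871 CPM (Tgfbr2-/-) in experiment 1, and at 1131 and 1344 against 946 CPM in experiment 2 (log2 fold change -0.49 ± 0.17). *Vcl*, which encodes vinculin of adhesion sites, was at 27.5 and 19.4 against 9.64 and 1.153 CPM and 14.9 and 22.7 against 8.23 CPM (log2 fold change -1.74 ± 0.83). *Flna*, the filament cross-linker filamin A, was at 165 and 123 against 111 and 82.3 CPM and 103 and 106 against 99.9 CPM (log2 fold change -0.37 ± 0.23), and *Actr2*, a subunit of the nucleating ARP2/3 complex, at 213 and 227 against 154 and 198 CPM and 326 and 327 against 279 CPM (log2 fold change -0.28 ± 0.16). Apart from *Vcl* these differences were below 0.5 on the log2 scale. The member on the other side was *Tmsb10*, a thymosin that binds actin monomers.

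The TGF-β pathway itself was not among the leading lists. Its list holds ligands, receptors and SMADs, some of them of the activin and BMP branches, and further regulators. DESeq2 called 1 of the 28 genes tested higher and 0 lower. In both experiments 0 were higher and 3 (10.7%, against 5.82% of all genes) lower, with a median of 0.01. The 3 were *Smad7*, the inhibitory SMAD that TGF-β induces as feedback, *Tgfb3* and the co-receptor *Tgfbr3*. *Smad7*, named after its values were seen, was at 85.2 and 66.6 CPM (WT) against 24.7 and 35.98 CPM (Tgfbr2-/-) in experiment 1, and at 20.9 and 33.99 against 15.4 CPM in experiment 2 (log2 fold change -1.13 ± 0.36). Of 16 genes known to be induced by TGF-β 0 were higher and 3 (18.8%) lower in both, with a median of -0.13 that turned to 0.14 without WT replicate 2 of experiment 1 and to 0.02 without Tgfbr2-/- replicate 1. DESeq2 called 1 of them higher and none lower. The 3 lower in both experiments were *Skil*, a feedback repressor of SMAD complexes, *Ldlrad4*, which sequesters SMAD2 and SMAD3, and *Ccr8*. Under scaling to library size or the upper quartile 1 of the 16 was higher and 1 lower in both.

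Other pathways gave the following counts. None of 28 genes of ER chaperones and the unfolded protein response was higher or lower in both experiments by the measure above. The same held for the 17 genes of arginine and polyamine metabolism. Of 79 subunits of the respiratory chain and ATP synthase 2 were higher and 4 lower in both, with a median of -0.06. Of 21 glycolysis genes 2 were higher and 1 was lower. Cytosolic heat shock proteins had 0 higher and 3 (14.3%) lower of 21, with 17 negative log2 fold changes and a median of -0.47, which was -0.60 within experiment 1 and -0.06 within experiment 2. DESeq2 called 3 of them lower. *Hsph1*, a co-chaperone of HSP70 given after its values were seen, was at 542 and 178 CPM (WT) against 84.9 and 50.4 CPM (Tgfbr2-/-) in experiment 1, with WT replicate 1 far above the rest, and at 73.9 and 100.5 against 66.4 CPM in experiment 2.

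Among single genes with a mean of at least 10 CPM, the 10 with the largest log2 fold change on the higher side were *Sprr2a1* with *Sprr2a2* (counted as 1 entry), *Fcgbp*, *Gzmc*, *Kif3c*, *Dyrk2*, *Iba57*, *Krt19*, *Nudt6*, *Irf5* and *Ttll12*. Of these *Fcgbp*, a mucus protein, *Krt19*, a keratin, and the *Sprr2a1* entry are epithelial genes with very unequal levels. *Krt19* was at 0.0519 and 0.153 CPM (WT) against 0.168 and 8.68 CPM (Tgfbr2-/-) in experiment 1, and at 13.6 and 132 against 584 CPM in experiment 2. Epithelial markers summed to 16.5 and 21.3 CPM (WT) against 50.5 and 90.3 CPM (Tgfbr2-/-) in experiment 1, and to 268 and 848 against 2086 CPM in experiment 2, led by *Krt8*, and 3 of 16 were higher in both. *Irf5*, a transcription factor downstream of Toll-like receptors, was at 2.80 and 3.27 against 76.6 and 125 CPM and 26.9 and 44.6 against 75.2 CPM (log2 fold change 3.80 ± 0.93). In all, 115 genes were under 2 CPM in both WT libraries of experiment 1 and over 5 CPM in the other 5 libraries, and 26 of the 813 genes higher in both (3.2%) and 3 of these 10 were among them.

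Among the genes lower in both experiments the 10 were *Pla2g7*, *Igj*, *Ahrr*, *Zfp74*, *Ankrd24*, *Uhrf1*, *Stk35*, *Stab2*, *Alpk3* and *Kmo*. *Kmo*, the kynurenine monooxygenase of tryptophan breakdown, was at 58.8 and 36.1 CPM (WT) against 9.41 and 11.1 CPM (Tgfbr2-/-) in experiment 1, and at 34.3 and 34.9 against 8.38 CPM in experiment 2. Every Tgfbr2-/- library lay below every WT library of either experiment, and the log2 fold change was -2.15 ± 0.43. *Pla2g7*, which encodes platelet-activating factor acetylhydrolase, was at 60.6 and 19.3 against 7.63 and 2.85 CPM and 20.5 and 64.1 against 7.61 CPM (log2 fold change -2.75 ± 0.71), and *Ahrr*, the repressor of the aryl hydrocarbon receptor, at 45.1 and 10.4 against 6.58 and 0.480 CPM and 19.2 and 21.7 against 4.38 CPM (log2 fold change -2.67 ± 1.01). All these genes separated in the same way. *Stab2*, a scavenger receptor best known from sinusoidal endothelium, was at 146 and 365 against 109 and 44.9 CPM and 218 and 170.3 against 26.1 CPM (log2 fold change -2.16 ± 0.48). Stromal and endothelial markers, led by *Pecam1*, summed to 246 and 232 CPM (WT) against 126 and 109 CPM (Tgfbr2-/-) in experiment 1, and to 131 and 501 against 91.2 CPM in experiment 2. Without *Pecam1* the list summed to 45.6 and 11.03 against 52.5 and 33.97 CPM in experiment 1 and to 25.2 and 302 against 34.7 CPM in experiment 2, overlapping in both. *Igj*, the joining chain of secreted antibodies, was at 430.4 and 393 against 35.98 and 28.1 CPM and 46.9 and 174 against 41.6 CPM, and B and plasma cell markers, led by it, summed to 568 and 460.4 against 87.2 and 105 CPM and 136 and 268 against 129 CPM, while *Pax5* of B cells had no count. Without *Igj* the list summed to 138 and 67.4 against 51.3 and 77.3 CPM in experiment 1, overlapping, and to 88.99 and 94.2 against 87.6 CPM in experiment 2, and of 8 tested 2 were higher (*Cr2* and *Ms4a1*) and 2 lower in both (*Igj* and *Mzb1*). The part of these cells in the values was not tested.

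Markers of further cell types gave the following sums. T cell markers, led by *Lat*, summed to 601 and 519 CPM (WT) against 466 and 455 CPM (Tgfbr2-/-) in experiment 1 and to 561 and 413 against 396 CPM in experiment 2, lower in both, with *Cd8a* at 0. Without *Lat* they summed to 254 and 128 against 146 and 111 CPM in experiment 1, overlapping, and to 180.5 and 130 against 82.2 CPM in experiment 2. Of 9 tested 5 had a positive log2 fold change, with a median of 0.20, and *Cd6* alone was lower in both. ILC3 markers, led by *Kit*, summed to 1336 and 949 against 788 and 944 CPM and 493 and 553 against 567 CPM, lower in the Tgfbr2-/- libraries of experiment 1 and higher in that of experiment 2. Without *Kit* the ILC3 markers summed to 795 and 595 against 539 and 652 CPM in experiment 1, overlapping. In experiment 2 they summed to 248 and 250.4 against 366 CPM. Mast cell and basophil markers, also led by *Kit*, summed to 573 and 382 against 253 and 311 CPM and 260.0 and 309 against 216 CPM, with 8 of 13 at 0, among them the tryptase and chymase genes *Tpsb2* and *Cma1*. *Kit* is shared by these types. Of the defining mast cell genes *Cpa3* had its highest level, 6.12 CPM, in WT replicate 1 of experiment 1, and *Hdc*, the histidine decarboxylase, was at 25.9 and 28.4 against 3.39 and 19.0 CPM and 13.2 and 2.18 against 14.7 CPM. Myeloid markers, led by *C1qc*, summed to 13.7 and 60.2 against 28.1 and 60.5 CPM and 26.6 and 486 against 45.2 CPM, with WT replicate 2 of experiment 2 far above the others. Neutrophil markers, led by *Mmp9*, summed to 1.45 and 0.817 against 22.8 and 22.7 CPM and 4.23 and 15.8 against 8.15 CPM, with *Elane* and *Mpo* at 0. Erythroid markers, led by *Car1*, summed to 0.311 and 0.408 against 1.81 and 5.51 CPM and 3.53 and 7.19 against 23.8 CPM, higher in both, with *Hbb-b1* at 0.

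Whether these effects differed from those in bone marrow ILC2p was tested as an interaction in 1 fit over all 15 libraries. Of 12806 genes 127 had an adjusted p under 0.1 (edgeR, quasi-likelihood test, Benjamini-Hochberg). Among the 73 named genes these were *Lcp1* (difference of log2 fold changes -1.60, adjusted p = 0.0173), *Flna* (-2.30, adjusted p = 0.064) and *Socs6* (8.13, adjusted p = 0.0766). For *Lcp1* and *Flna* the genotype effect was thus more negative in LP ILC2s than in ILC2p, and for *Socs6* more positive. In ILC2p the log2 fold change was 1.138 ± 0.185 for *Lcp1*, 1.962 ± 0.341 for *Flna* and -6.691 ± 1.445 for *Socs6*. In LP ILC2s it was -0.49, -0.37 and 1.43, so the effects had opposite signs and were larger in size in ILC2p. No other named gene was shown to differ between the cell types.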

How the data were processed

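The authors mapped reads to mm9 with TopHat (up to 15 hits kept per read; Bowtie2 is also named in the submitters' processing notes) and counted them on RefSeq genes over full transcripts; strand is not given in the sources used here. Per library, the authors deposited raw read counts per gene and RPKM, normalized to the number of reads in the file header. Each table has 24690 entries, of which 907 share a symbol with another and 205 join several genes; entries were kept as deposited.

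Samples were grouped by the labels. The tests used edgeR 4.0.16 under R 4.3.3 (raw counts, TMM scaling, filterByExpr, quasi-likelihood test, experiment as covariate), called at a Benjamini-Hochberg adjusted p under 0.1 and a fold change over 1.5. Standard errors were derived from F as |log2 fold change| over its root. CPM use the TMM library sizes, and log2 CPM a prior count of 0.5. The test was tested on simulated data. Members and gene lists were chosen with earlier results of these data known, among them 11 lists of cell type markers. Named were both receptor genes, in each leading list up to 4 members with the largest change on its side, and the marker of each cell type with the highest counts. Also named were the 10 largest changes per direction among genes on that side in both experiments with a mean of at least 10 CPM. Others were chosen after their values were seen. Promoters are from RefSeq (GRCm38.p6) and positions from GENCODE for NCBIM37.

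Alternatives were DESeq2 1.42.0, edgeR's likelihood ratio test, limma 3.58.1 (voom, or log2(RPKM + 1) and log2(RPKM + 0.1)), other scalings, filters, thresholds and designs, and each library left out. The restriction to a mean of at least 20 CPM was chosen after seeing the data.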

Additional observations from a re-analysis of the deposited data

Results flagged for a closer look

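Among the 4 WT libraries, 73 named genes were examined for a library far from the other 3 on the log2 scale, and 5 had one; chance alone gives about 1 in 20. *Tgfbr1* had 3.01 CPM in WT replicate 2 of experiment 1 and 13.6 to 17.6 CPM in the others. *Klrc1* had 0.0 CPM in WT replicate 2 of experiment 2 and 1.82 to 4.25 CPM in the others, and *Bcl2a1a* at 9.93 CPM in WT replicate 1 of experiment 2 against 6.97 to 7.3 CPM. *Kmo* had 58.8 CPM in WT replicate 1 of experiment 1 against 34.3 to 36.1 CPM, and *Pecam1*, an adhesion receptor of endothelium and leukocytes, at 106 CPM in WT replicate 1 of experiment 2 against 198 to 221 CPM.

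The genotype effect differed between LP ILC2s and bone marrow ILC2p for 3 named genes, by edgeR's quasi-likelihood test of the interaction with Benjamini-Hochberg adjustment over 12806 genes. The difference of the log2 fold changes was -1.601 for *Lcp1* (adjusted p = 0.0173), -2.302 for *Flna* (adjusted p = 0.064) and 8.135 for *Socs6* (adjusted p = 0.0766). The log2 fold changes were 1.138, 1.962 and -6.691 in ILC2p against -0.493, -0.369 and 1.431 in LP ILC2s. The larger part thus lay in ILC2p, with the opposite sign. The marrow libraries were sorted from bone marrow chimeras and the LP libraries from intact mice, so cell type, tissue and model cannot be told apart in this difference.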

How the results depend on the processing

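Calls depended on the test: 269 higher and 69 lower with DESeq2, 42 and 14 with edgeR's likelihood ratio test, 3 higher without a filter, and 0 higher and 0 lower with every other setting, the replicate block and voom and limma on RPKM included. In experiment 1 the deviations of same-numbered libraries correlated at -0.064 across genes. This value comes from a single pair of differences, so it cannot show whether the numbers mark pairs. The numbers are those of the titles, from which the deposited tables of the Tgfbr2-/- libraries differ. Under the replicate block 0 genes were called. Over the libraries left out in turn, the number higher in both experiments ran from 1241 to 1495 (813 with all, 315 at a mean of at least 20 CPM) and the number lower from 1015 to 1383; fewer libraries have to separate there. Scaling to library size or the upper quartile moved the median of all genes up by 0.09 or 0.10 log2.

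Medians that moved were, for lectin-like receptors, 1.12 on log2(RPKM + 1), 1.10 with at least 10 counts per library and 1.01 at 20 CPM; for cytotoxic genes, 1.38 in experiment 2 alone and 0.70 to 1.31 over libraries left out; for the SOCS family 0.13 to 1.10 and for the BCL2 family 0.42 to 1.05 over libraries left out, and 1.06 and 0.09 in experiments 1 and 2; for checkpoint receptors, -0.13 at 20 CPM, reversed. For actin genes the median was -0.094 on RPKM, -0.10 with library size, -0.081 with the upper quartile, -0.084 in experiment 1 and -0.216 to -0.099 over libraries left out. For clock genes it was -0.12 on RPKM, -0.20 with library size, -0.18 with the upper quartile, -0.14 with at least 10 counts, -0.35 without the covariate and -0.31 to -0.14 over libraries left out. Type 2 cytokines were at -0.35 in experiment 2. Over libraries left out the medians ran from -0.497 to 0.106 for chemokine receptors, -0.597 to -0.25 for regulators of G-protein signalling, -0.176 to 0.071 for type 2 cytokines, -0.186 to 0.144 for genes induced by TGF-β, -0.285 to -0.059 for ILC2 markers, 0.103 to 0.35 for checkpoint receptors and 0.164 to 0.321 for cytosolic ribosomal proteins. The cause was not tested.

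ILC2 activating receptors reversed in experiment 1 alone (-0.078) and ran from -0.094 to 0.141 over libraries left out. Of 73 named genes 3 reversed. *Nkg7* was at 0.096 on RPKM, 0.085 with library size, 0.104 with the upper quartile, 0.059 with at least 10 counts, 0.01 with the replicate block, 0.15 in experiment 2 and -0.088 to 0.166 over libraries left out. *C1qc* ran from -2.55 to 0.46 and *Mmp9* was at -0.20 in experiment 2. In all, 1132 of 1144 comparisons of named genes kept their direction. DESeq2 called 34 of these genes and the other settings run for them none; the likelihood ratio test, voom and the fit without a filter were not run for them. With 1 Tgfbr2-/- library in experiment 2, its own spread is unknown there.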
